A study of Homo sapiens with 4 samples.

Results

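To compare where the histone methyltransferase ASH1L and the mark it can write, dimethylated lysine 36 of histone H3 (H3K36me2), were found in leukemia cells, all CUT&RUN peaks of the 2 vehicle-treated libraries on chromosomes 1 to 22 and X were examined. There were 4432 such peaks among the 6948 peaks listed for the series, 3073 for ASH1L and 1359 for H3K36me2. Each peak was placed by its summit, the base covered by the most fragments. Both libraries came from MV4;11 cells grown for 4 days with 0.25% DMSO, and they differed in the antibody, against ASH1L or against H3K36me2. Their counterparts, grown for the same 4 days with 5 µM AS-99, an inhibitor of ASH1L, held 2446 peaks on these chromosomes and are quoted only beside a few values. MV4;11 is a human myelomonocytic leukemia cell line with an MLL1-AF4 fusion, and no other line or primary cell was profiled. With 1 library in each group, differences could not be checked against replicates, no p-value is given, and the 95% intervals reflect counting error, or for medians how peaks vary, and nothing else.

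ASH1L is a trithorax-group protein whose SET domain adds methyl groups to lysine 36 of histone H3, a modification linked to active chromatin and opposed to Polycomb silencing. NSD-family enzymes write the same mark over broad domains within and between genes, and SETD2 converts it to the trimethylated form in transcribed gene bodies. In CUT&RUN, an antibody bound in permeabilised cells brings a nuclease to its target, and the released DNA fragments are sequenced. In MLL-rearranged leukemia, ASH1L has been studied for its cooperation with MLL1 and with the HOXA and MEIS1 genes that MLL1 fusions drive.

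The 5 summit windows printed here, from the plus strand of hg19, differed in their number of CG dinucleotides. Each reaches 50 bp to either side of the summit, with every CG dinucleotide in capitals. Their GC content did not separate them by position, at 55.4% in both the CIC and the ATG5 window. Being picked from the highest peaks, they are examples and do not stand for their classes. The CIC and GSK3A windows were 2 of the highest ASH1L summits near gene starts. The ATG5 window was at 1 of the highest H3K36me2 summits inside genes. The last windows, at the ASH1L summits of intergenic regions whose nearest gene starts were those of PTGER4 and ARHGAP12, held peaks of both lists. None of these windows touched an exon of a protein-coding gene, and regions present in all 4 lists of the series were passed over. CIC, chr19:42772949-42773049, and GSK3A, chr19:42747223-42747323, held 6 and 7 CG dinucleotides. ATG5, chr6:106612151-106612251, held 2. The PTGER4 region, chr5:40356356-40356456, held 0, and the ARHGAP12 region, chr10:32266709-32266809, held 1. In lower case, the ATG5 window also holds tgagtca, the reverse complement of the AP-1 motif described later.
CIC: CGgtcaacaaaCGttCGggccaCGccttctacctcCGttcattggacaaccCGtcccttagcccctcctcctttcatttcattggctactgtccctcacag
GSK3A: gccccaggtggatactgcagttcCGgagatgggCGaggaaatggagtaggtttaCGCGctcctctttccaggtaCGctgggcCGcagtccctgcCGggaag
ATG5: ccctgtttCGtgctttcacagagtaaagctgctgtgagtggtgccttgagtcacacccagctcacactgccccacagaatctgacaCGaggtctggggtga
PTGER4 region: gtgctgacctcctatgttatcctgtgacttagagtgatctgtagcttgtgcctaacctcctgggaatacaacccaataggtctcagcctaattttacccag
ARHGAP12 region: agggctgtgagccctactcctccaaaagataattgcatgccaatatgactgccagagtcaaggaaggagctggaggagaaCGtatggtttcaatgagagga

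The peaks were low and narrow. After filtering, the DMSO ASH1L library had 19635489 fragments and the DMSO H3K36me2 library 15584143. The median summit pileup, the number of fragments over the summit, was 16 for ASH1L and 19 for H3K36me2, with a lowest value of 10 in both. Pileups were not scaled between libraries and were compared within a list only. Broad-region calling was off for both antibodies, so an H3K36me2 peak marks a local maximum and not the extent of a domain. The identity of the cells could not be checked from expression. Of 15 myeloid marker genes, 0 had an ASH1L summit at the start and 1, FLT3, had one within the gene, and of 5 markers of other blood cells 0 had either. Over all protein-coding genes the shares were 4.45 and 6.2%, so these counts are near the background.

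ASH1L was found at gene starts far more often than the mark. Of the 3073 ASH1L summits, 741 (24.1%, 95% interval 22.6 to 25.7) lay within 1 kb of the start of a protein-coding gene, against 67 of the 1359 H3K36me2 summits (4.93%, 3.84 to 6.22). The difference was 19.2 percentage points (17.2 to 21.0). Such positions make up 1.30% of the determined bases, so both lists held more gene-start summits than the base share, the mark to a smaller degree. In gene bodies, that is inside a protein-coding gene and over 1 kb from every start, lay 39.99% of ASH1L and 47.8% of H3K36me2 summits, a difference of -7.84 points (-11.0 to -4.67) with a base share of 45.1%. With the starts of all protein-coding transcripts counted, this difference was -12.0 points. The remaining 35.9% of ASH1L and 47.2% of H3K36me2 summits were intergenic, beside 53.6% of the bases. In the AS-99 libraries the gene-start shares were 14.5% for ASH1L and 9.94% for the mark, which differed by 4.52 points (1.52 to 7.22).

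The median distance from a summit to the nearest gene start was 22.6 kb for ASH1L (20.1 to 24.8) and 45.9 kb for H3K36me2 (41.9 to 51.2). Leaving out the summits at gene starts, the medians were 40.3 kb (37.6 to 42.7) and 50.2 kb (45.5 to 55.5), so the lists lay closer together once the gene-start peaks were set aside. The difference of the medians, 23.3 kb, was 6.49 kb when all annotated genes were counted and 12.7 kb among peaks of at least 5-fold enrichment. Within 250 bp of a start lay 12.4% of ASH1L summits and 2.43% of H3K36me2 summits, against 0.336% of bases. From 1 to 5 kb the lists were close, at 7.52% (6.61 to 8.51) and 6.11% (4.89 to 7.52). Over 100 kb from any start lay 19.3% of ASH1L summits (17.9 to 20.7) and 31.4% of H3K36me2 summits (28.96 to 33.96), and both shares were below the 46.2% of bases found there.

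**Figure D1:**
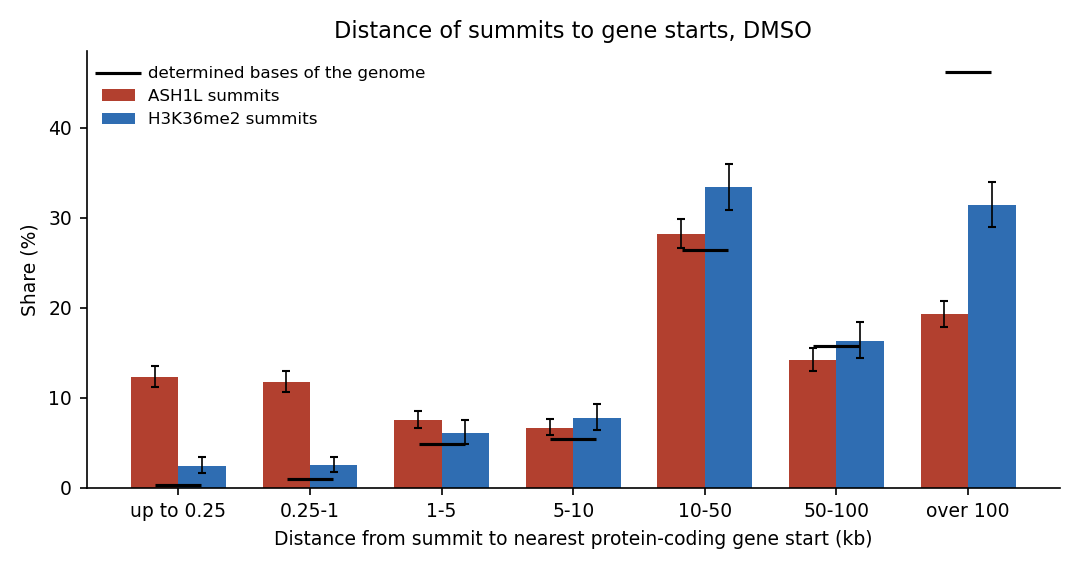
Share of the 3073 ASH1L (red) and 1359 H3K36me2 (blue) summits with DMSO in each class of distance to the nearest protein-coding gene start, in percent, with exact 95% intervals as bars and the share of determined bases as black marks. The ASH1L bars stand above the H3K36me2 bars in both classes up to 1 kb, and the order is turned over 100 kb.

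Around the outermost annotated start, ASH1L summits lay more often downstream than upstream. Of the 741 ASH1L summits within 1 kb, 478 lay downstream and 263 upstream in the direction of transcription, 64.5% downstream (60.9 to 68.0), where the bases gave 50.9%. The median position was 133 bp downstream (99 to 156), with quartiles at -129 and 296 bp. The 250 bp just downstream held 246 summits and the next 250 bp held 164, against 133 in the 250 bp just upstream. The 67 H3K36me2 summits showed no such side, with 33 downstream and 34 upstream (49.3%, 36.8 to 61.8) and a median of -2 bp (-104 to 91). With AS-99, 180 of 262 ASH1L summits were downstream (68.7%, 62.7 to 74.3). Starts of shorter transcripts lie downstream of the outermost start, which favours the downstream side. With DMSO and the starts of all protein-coding transcripts counted, 57.4% of ASH1L summits within 1 kb of a start were downstream (54.2 to 60.6). The base share for that setting was not computed.

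**Figure D2:**
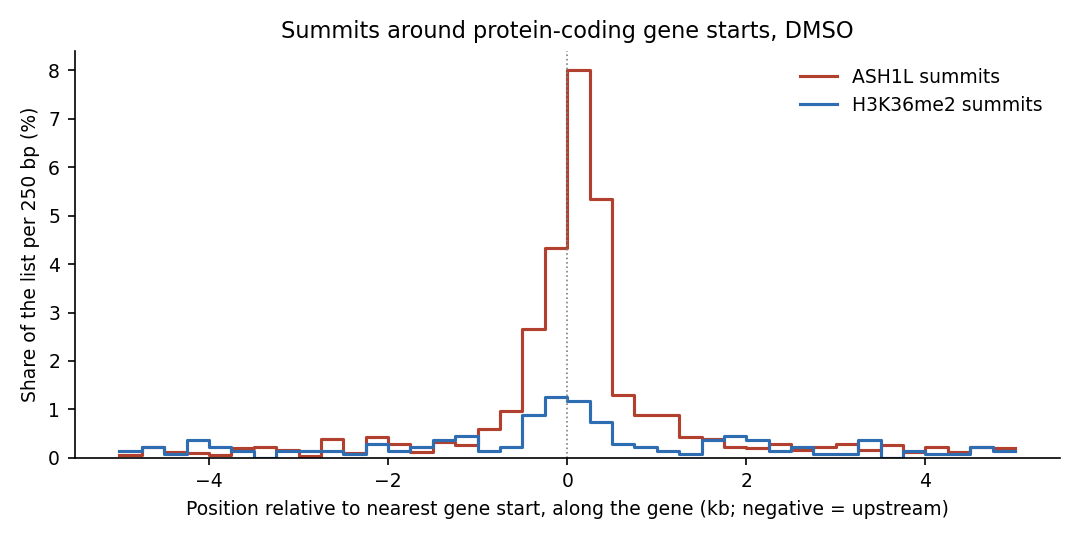
Share of each DMSO list per 250 bp from 5 kb upstream to 5 kb downstream of the nearest protein-coding gene start, oriented along the gene, for ASH1L (red) and H3K36me2 (blue). The ASH1L profile is highest in the 250 bp just downstream of the start and falls from there. Beyond 1 kb the bins hold few summits and the order of the lists varies. It is 0.423% for ASH1L against 0.0736% for the mark at 1250 to 1500 bp, and 0.228 against 0.442% at 1750 to 2000 bp.

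The highest ASH1L summits at gene starts belonged to genes of widely different function, and 7 of the leading 10 were on chromosome 19. The first was near DBP (chr19:49140683-49141594), a circadian transcription factor of the PAR bZIP family, with a pileup of 40 fragments (counting interval 28.6 to 54.5) at -828 bp, upstream of the start. The next, at CIC (chr19:42772611-42773245), the gene of the capicua repressor, had a pileup of 38 (26.9 to 52.2), 310 bp downstream in an intron. Their intervals overlap, so the order of these peaks was not resolved. MANBA, the lysosomal beta-mannosidase gene on chromosome 4, followed with 34 fragments in an exon 192 bp from the start, and TRIM41, a ubiquitin ligase gene on chromosome 5, with 33. CYTH2, whose product activates ARF GTPases, and GSK3A, which encodes a glycogen synthase kinase isoform, each had 32. SIGLEC10 and SIRPB2, both genes of immune-cell surface receptors, had 31, as did the zinc finger gene ZNF524 and MRPL54, a protein of the mitochondrial ribosome. Only 1 of the 10, at SIGLEC10, was overlapped by an H3K36me2 peak, with the summits 13 bp apart, and that region was listed in all 4 libraries. For the other 9, the nearest mark summit was between 22.9 kb (DBP) and 2678 kb (MANBA) away. Of these 10 peaks 6 lay downstream and 4 upstream of the start.

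Inside gene bodies, ASH1L and the mark were spread alike. Each gene was split into 5 parts of equal length from start to end, and the longest gene was used where several overlapped. The 1229 ASH1L summits in gene bodies fell into these parts at 19.7, 21.8, 20.3, 17.0 and 21.2%, and the 650 H3K36me2 summits at 20.2, 21.5, 19.7, 19.7 and 18.9%. The bases divided into 19.03, 20.3, 20.3, 20.2 and 20.1%, and each interval of the mark contained its base share. For ASH1L the interval of the fourth part (14.9 to 19.2) lay below the base share and the others contained it. The median relative position, 0 at the start and 1 at the end, was 0.479 for both lists, with intervals of 0.447 to 0.506 and 0.437 to 0.528. No pile-up of the mark toward the end or of the enzyme toward the start was therefore seen once the first 1 kb was set aside. With those summits kept in, the medians differed by -0.14, ASH1L minus mark (-0.19 to -0.09).

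**Figure D3:**
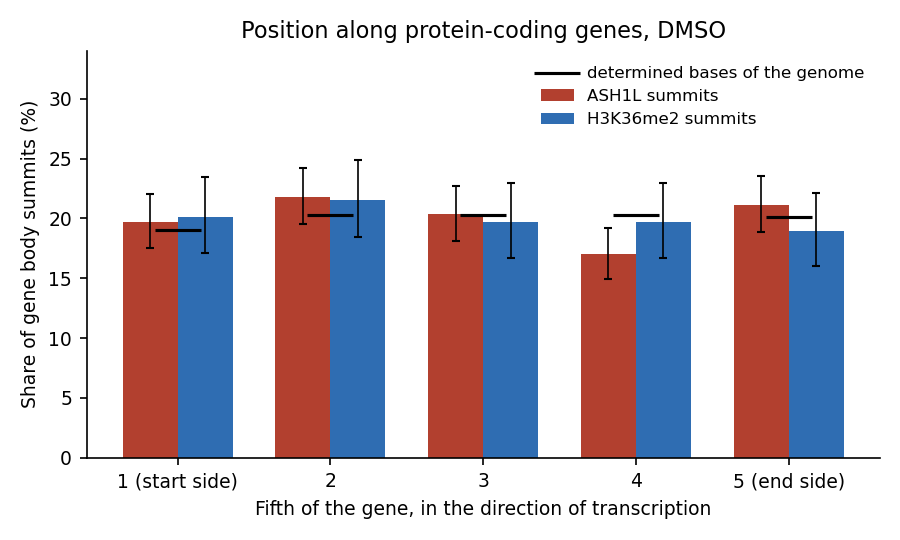
Share of gene body summits in each of 5 equal parts of the host gene, in percent, for 1229 ASH1L (red) and 650 H3K36me2 (blue) summits with DMSO, with exact 95% intervals and the share of determined gene body bases as black marks. Bars of both lists lie between 17.0 and 21.8%, with the ASH1L bar of the fourth part lowest.

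The host genes were long in both lists, with a median of 124 kb for ASH1L and 139 kb for the mark against 27.3 kb over all protein-coding genes. Longer genes offer more bases for a summit to fall in. Exons held 197 of the 1229 ASH1L gene body summits (16.0%, 14.0 to 18.2) and 66 of the 650 H3K36me2 summits (10.2%, 7.94 to 12.7), with 7.76% of gene body bases exonic. The enzyme was thus found in exons more often than the base share, while for the mark the lower bound stood just above it. Exons of all transcripts of protein-coding genes were counted, and only the outermost start of each gene was set aside. First exons at the starts of shorter transcripts can therefore count as gene body here. Their part in the exon shares was not tested.

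The highest H3K36me2 summits in gene bodies were mostly intronic and lay far from the start. Of the leading 10, 8 were in introns, 2 in exons, and their distance from the start ran from 4.41 kb (PMFBP1) to 189.6 kb (DTNB). The highest, with 47 fragments (34.5 to 62.5), was in HFM1, a meiotic helicase gene (chr1:91852810-91853121), at a region listed in all 4 libraries. The ASH1L pileup there was 235, and without a control library such signal could not be told from background. ATG5, which encodes a protein of autophagosome formation, had 41 fragments (29.4 to 55.6) at chr6:106611819-106612512, 57.6% of the way along the gene. DEDD2, a gene of apoptotic signalling, had 39 in an exon (chr19:42705879-42706304). Of the same 10, 6 were overlapped by an ASH1L peak, at HFM1, ATG5, DEDD2, MS4A4A, MS4A6E and HSH2D. MS4A4A and MS4A6E belong to a family of membrane proteins expressed in myeloid cells, and HSH2D encodes an adaptor protein of blood cells. At MS4A4A the 2 summits were 1 bp apart. Those in DTNB, GAB2 (an adaptor of growth factor receptor signalling) and PMFBP1 were not overlapped, and lay 62.8 to 326.4 kb from an ASH1L summit.

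Enzyme and mark coincided at a minority of places, and where they did, the summits nearly touched. Of the 1359 H3K36me2 summits, 128 (9.42%) had an ASH1L summit within 0.1 kb, 196 (14.4%) within 0.2 kb and 271 (19.9%, 17.8 to 22.2) within 1 kb. The corresponding base shares were 0.0218, 0.0435 and 0.216%. Between 1 and 5 kb the count rose only from 271 to 286, and at 10 kb it was 317 (23.3%). At 50 kb it reached 526 (38.7%, base share 9.48%) and at 100 kb 674 (49.6%, base share 17.1%). Seen from the enzyme, 273 of the 3073 ASH1L summits (8.88%, 7.90 to 9.95) had a mark summit within 1 kb, 331 within 10 kb (10.8%) and 791 within 100 kb (25.7%), with base shares of 0.0957, 0.929 and 8.08%. Of the 1359 ASH1L peaks with the best p-values as listed, 14.3% had a mark summit within 1 kb. The 2 curves therefore rise to 1 kb, stay nearly flat to 10 kb and rise again at larger distances.

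**Figure D4:**
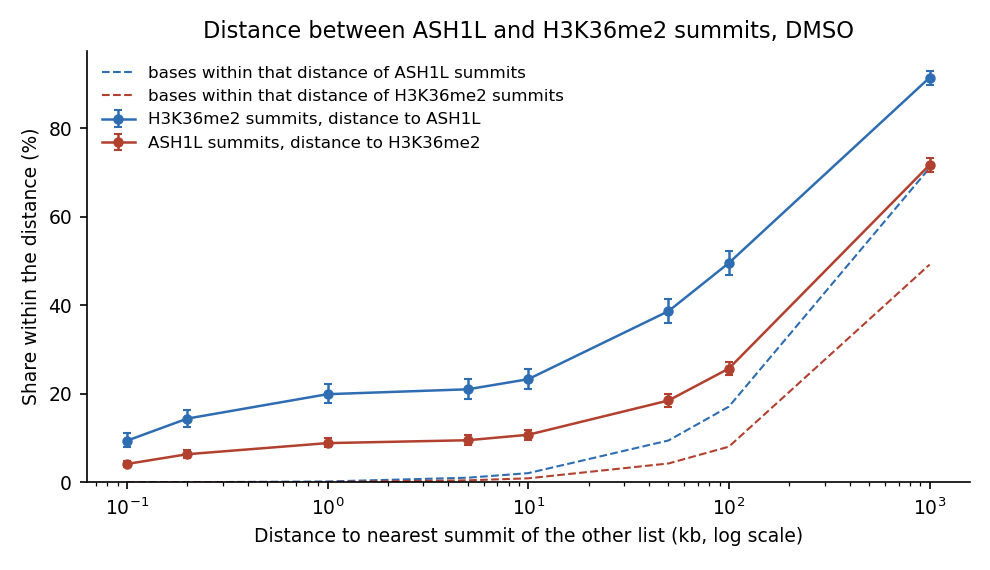
Cumulative share of summits, in percent, with a summit of the other list within the distance on the x axis (kb, log scale), for H3K36me2 (blue) and ASH1L (red) with exact 95% intervals. Dashed lines give the share of determined bases within the same distance of the other list, and both solid lines lie above their dashed line at every distance.

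By overlap of at least 1 bp, 251 peaks of each list met, which is 8.17% of the ASH1L list and 18.5% of the H3K36me2 list. The median offset of the paired summits was 97 bp (77 to 107). Of these 251 regions, 47 were present in all 4 lists of the series, and 56 lay within 1 Mb of an assembly gap of at least 50 kb. The other 2822 ASH1L and 1108 H3K36me2 peaks stood alone. Over each whole list, the median distance to the nearest summit of the other was 403 kb from ASH1L and 103 kb from H3K36me2.

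The 10 strongest coinciding regions away from gaps were 7 intergenic and 3 gene body regions, with 0 at gene starts. Of these, 5 were present in all 4 lists, among them the 3 highest by the smaller of the 2 pileups: chr17:41399880-41401148 near TMEM106A (98 fragments for ASH1L, 90 for the mark), chrX:108297384-108297827 (115 and 59) and the intron of HFM1 (235 and 47). Without a control library, signal present in all 4 lists could not be told from background. The other 5 regions were not in all lists. An intergenic region 324 kb from the start of PTGER4, a prostaglandin receptor gene, had 30 and 31 fragments with summits 283 bp apart. A region 49.0 kb from ARHGAP12 had 27 and 35 fragments, 85 bp apart. DEDD2 had 28 and 39, the region near SMG9, a gene of nonsense-mediated decay, 32 and 27, and MS4A6E 26 and 32.

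Coincidence was rarest exactly where ASH1L was most concentrated. Of the 741 ASH1L peaks at gene starts, 14 (1.89%, 1.04 to 3.15) were overlapped by a mark peak, against 97 of 1229 in gene bodies (7.89%, 6.45 to 9.54) and 140 of 1103 between genes (12.7%, 10.8 to 14.8). Of these overlapped peaks, 1, 7 and 39 in turn were in all 4 lists, and 3, 12 and 41 lay within 1 Mb of an assembly gap. The shares of the 3 classes were not computed without such peaks, so the rise from gene bodies to intergenic peaks rests in part on them. Gene starts minus elsewhere (237 of 2332, 10.2%) gave -8.27 points (-9.77 to -6.56), -7.51 points without peaks near gaps, and -13.3 points with the same shortened ASH1L list. The median distance from ASH1L to the nearest mark summit was 516 kb at gene starts, 399 kb in gene bodies and 308 kb between genes. Seen from the mark, the shares were 14 of 67 (20.9%, 11.9 to 32.6) at gene starts, 14.9% in gene bodies and 21.8% between genes. In the AS-99 libraries 16 of 262 ASH1L peaks at gene starts were overlapped (6.11%, 3.53 to 9.73), 5.02% in gene bodies and 9.96% between genes.

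Around ASH1L peaks, the density of mark summits fell off within 1 kb. It was 9.48 per Mb within 1 kb of ASH1L at gene starts (5.18 to 15.9), 42.8 at gene bodies (35.0 to 51.8) and 69.1 between genes (58.6 to 81.0). From 1 to 10 kb the values were 0.99, 0.78 and 0.89 per Mb, with overlapping intervals, and the density over the whole genome was 0.479 per Mb. From 10 to 50 kb it was 0.94 around gene starts (0.70 to 1.24), 1.05 around gene bodies (0.85 to 1.29) and 1.53 between genes (1.26 to 1.83), so the intergenic value stood above that of gene starts there too. From 50 to 100 kb the intervals of all 3 overlapped.

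A small difference in the mark inside the gene was seen between genes with ASH1L at the start and other genes, and its side of 0 depended on the setting. Over the 20098 protein-coding genes, 895 (4.45%) had an ASH1L summit within 1 kb of the start and 603 (3%) had an H3K36me2 summit in the gene beyond 1 kb from the start. Both were found in 33 genes, 3.69% (2.55 to 5.14) of those with ASH1L at the start against 570 of 19203 others (2.97%), a difference of 0.72 points (-0.36 to 2.18), or -0.73 points (-1.84 to 1.28) with the shortened ASH1L list. It was 1.26 points (0.10 to 2.86) without peaks near assembly gaps and 1.71 points (0.92 to 2.76) over all annotated genes, and these intervals lay above 0. In genes up to 10 kb long the shares were 2 of 179 (1.12%) and 0.198%, a difference of 0.92 points (0.09 to 3.79). In genes over 100 kb long the shares were 18 of 125 (14.4%) and 9.08%, which differ by 5.32 points (0.13 to 12.6). The lower bound is close to 0, and in genes of 30 to 100 kb the difference was -0.75 points (-2.14 to 1.78). At the start itself the mark was found in 0.388% of all genes, in 2.12% of genes with ASH1L there (19 genes, 1.28 to 3.30) and in 0.307% of the others (0.234 to 0.396). A summit could serve several genes with neighbouring starts, so genes are not independent.

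In the 33 genes with both, 37 mark summits lay at a median of 63.6 kb from the start, from 1.08 to 478 kb, and 6 were within 10 kb. ACTMAP, which encodes an actin-processing protease, was the gene with the nearest mark among the 10 named, with ASH1L at 582 bp (25 fragments) and the mark at 2.59 kb (20 fragments). In AVL9, a gene of vesicle traffic, the mark (19 fragments) followed ASH1L (21 fragments) at 6.05 kb. CDK19, a kinase of the Mediator complex, had ASH1L at 310 bp (20 fragments) and the mark 76.7 kb into the gene (19 fragments). A gene without a symbol, ENSG00000289694, had 20 fragments of ASH1L at the start and 23 of the mark at 14.9 kb. In BCAR3, SCAPER, SLX4IP and MARK3 the mark lay 88.2, 194, 70.1 and 42.2 kb from the start. At MS4A7 and MS4A14, neighbours in the MS4A cluster on chromosome 11, a single ASH1L peak (chr11:60145482-60145825, 19 fragments) upstream of both starts was met by a mark summit 43 bp away. The mark summit 11.1 kb downstream of both starts is the exonic peak listed above for MS4A6E, whose annotated extent overlaps these genes, so the same 32 fragments stand for all 3.

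ASH1L inside a gene went with the mark inside the gene. Of the 1246 genes (6.2% of all) with an ASH1L summit in the body, 199 held the mark there (16.0%, 14.0 to 18.1), against 404 of 18852 other genes (2.14%), a difference of 13.8 points (11.9 to 16.0). A coinciding pair of peaks inside a gene counts toward both sides of this comparison, and 97 gene body peaks of each list were overlapped by the other. The comparison therefore in part repeats the overlap given above, and it was not made without those peaks. Since long genes collect more summits of any kind, the shares were also taken by length. They were 10.6% and 0.71% in genes of 10 to 30 kb, 11.0% and 2.80% in genes of 30 to 100 kb, and 21.7% and 6.72% above 100 kb. In these 3 classes the difference had lower bounds of 6.14, 5.44 and 11.8 points. In genes up to 10 kb it rested on 1 of 42 genes (2.38%) against 0.212%, with a lower bound of 0.20 points.

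RUNX1 and FOXN3 held 6 mark summits each, more than any other gene named here. RUNX1, a hematopoietic transcription factor gene on chromosome 21, also had 6 ASH1L summits and none at its annotated start. In 2 places the lists met, at chr21:36880991-36881354 (21 fragments for ASH1L, 25 for the mark, 86 bp apart) and chr21:37110465-37110936 (16 and 22, 92 bp apart). The other 4 ASH1L summits, of 14 to 26 fragments, were 19.9 to 174.8 kb from the nearest mark summit. The annotation used gives RUNX1 a length of 1217 kb, its outermost transcripts included. An ASH1L peak with its summit in an exon (chr21:36421241-36421692, 23 fragments) lay 956 kb from that outermost start. Whether it or the other summits lie at the start or outside the bounds of shorter RUNX1 transcripts was not examined. FOXN3, a forkhead repressor gene, had 3 ASH1L summits, and MGLL, the monoglyceride lipase gene, had 3 mark summits, 2 ASH1L summits in the body and ASH1L at the start.

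Among the 22 targets of MLL1 fusions examined, 0 had ASH1L within 1 kb of the annotated start, where 4.45% of all genes did. That start is the one of the outermost transcript, and starts of shorter transcripts were not examined for these genes. Inside the gene 6 of 22 (27.3%) had ASH1L and 2 (9.09%) had the mark, beside 6.2 and 3% of all genes, and the median length of these targets was 71.9 kb, above that of all genes. The 6 were MBNL1 (an RNA splicing regulator, 16 fragments), HOXA3 (15), CDK6 (a cell cycle kinase, 12), FLT3 (a receptor kinase, 21), BCL2 (an inhibitor of apoptosis, 14) and RUNX1, and the 2 with the mark were RUNX1 and JMJD1C (17 fragments). The annotated extent of HOXA3 is 46.4 kb with the outermost transcripts included, and its ASH1L summit lay 15.6 kb from that start. Whether this summit falls inside the shorter transcripts of HOXA3 or nearer to a neighbouring gene was not examined. HOXA9, HOXA10, MEIS1 and MEF2C had neither enzyme nor mark. These single peaks had 12 to 21 fragments where the lowest listed peak had 10, so weaker binding was not detectable at this depth.

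Of 26 genes that write, remove or read H3K36 methylation, 1 had ASH1L at the start, SETMAR (21 fragments, 219 bp downstream). Another 4 had ASH1L inside the gene: the demethylase genes KDM4B and KDM4C with 2 summits each, the Polycomb-associated reader gene PHF19 with 1, and MSH6 with 1. Within the annotated extent of MSH6, a mismatch repair gene whose product binds methylated H3K36, enzyme and mark coincided (16 fragments each, 85 bp apart). That extent is 114.5 kb with the outermost transcripts included, and both summits lay 57.2 kb from its start. Whether they fall inside the shorter transcripts of MSH6 was not examined. KDM2B, an H3K36 demethylase gene, had the mark alone (13 fragments) and HDGFL2 had the mark at -410 bp, upstream of its start (18 fragments). ASH1L itself, NSD1, NSD2 and SETD2 had neither. The list's shares were 3.85% with ASH1L at the start, 15.4% with ASH1L in the gene and 7.69% with the mark in the gene, beside 4.45, 6.2 and 3% of all genes, and its median gene length was 73.7 kb.

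Families of housekeeping genes, taken by the prefix of their symbols, had ASH1L at the start at shares of 6.41 to 10.4%. The counts were 7 of 80 genes with RPL or RPS symbols (8.75%), 6 of 68 replication-dependent histone genes (8.82%), 5 of 48 genes with NDUF symbols, of NADH dehydrogenase (10.4%), 3 of 40 proteasome genes (7.5%) and 5 of 78 mitochondrial ribosomal protein genes (6.41%). The background was 4.45%, and with so few genes these counts rest on single peaks. Of the RPL and RPS genes with ASH1L, RPL5, RPS19, RPS25 and RPS29 encode ribosomal proteins, and RPL7L1, RPL22L1 and RPS27L are their paralogues, while NDUFAF4 among the NDUF genes encodes an assembly factor. The mark was in the body of 0 of these RPL and RPS, 0 histone and 0 NDUF genes, 1 mitochondrial ribosomal protein gene (1.28%) and 2 proteasome genes (5%), PSMD1 and PSMA1, beside 3% of all genes. At the start it was found in 2 proteasome genes, PSMD9 and PSMD11, and 1 NDUF gene, NDUFS8, beside 0.388% of all genes. Zinc finger genes of the ZNF series had ASH1L at the start in 48 of 515 (9.32%). On chromosome 19 the share was 12.9% for them (32 of 249, 8.96 to 17.7) and 7.64% for other genes (6.21 to 9.26). Elsewhere it was 6.02% (16 of 266, 3.48 to 9.58) and 4.10% (3.82 to 4.40). Within each part of the genome the intervals overlapped, which does not exclude a difference. Outside chromosome 19 the difference was 1.91 points (-0.39 to 5.45), and for chromosome 19 alone its interval was not computed. The difference between zinc finger and other genes over all chromosomes, 5.00 points, was 1.47 to 2.37 points among the stronger peaks. Those settings kept 981 to 1359 of the 3073 ASH1L peaks, so the shares of both groups of genes can only be equal or lower there. The size of the difference in points is therefore not comparable between settings, and the ratio of the shares was not computed.

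The lists were also spread unevenly over chromosomes. ASH1L had 1.08 peaks per Mb over all chromosomes and H3K36me2 0.479. Chromosome 19, with 26.5 gene starts per Mb, had 5.04 ASH1L peaks per Mb (4.46 to 5.66) and 1.36 of the mark (1.07 to 1.70), and 37.7% of its ASH1L peaks were at gene starts. Chromosome 8 had 1.65 and 0.93 per Mb (133 mark peaks, 0.78 to 1.10) with 4.96 gene starts per Mb, and 12.3% of its ASH1L peaks were at gene starts. Both lists were sparsest on chromosome X, at 0.179 and 0.086 per Mb. Copy number of the cell line was not measured, and its part in these densities was not tested.

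Base composition followed the same division as position. The median GC content of the 200 bp around the summit was 54.0% for ASH1L (53.5 to 54.5) and 44.5% for the mark (43.5 to 45.0), against 40.9% of the genome. At gene starts it was 64.5% for ASH1L and 56.0% for the mark, where all gene starts had 63.5%. In gene bodies the values were 52.5 and 44%, and between genes 49.5 and 43.5%, so ASH1L summits were richer in GC in each class. ASH1L summits at gene starts had a median of 8 CG dinucleotides per 100 bp, against 1.5 in gene bodies and between genes. Where the lists met, ASH1L summits had 48.5% GC, below the 54.5% of those alone, and mark summits had 48.0%, above the 43.5% of those alone. Gene starts held 14 of the 251 ASH1L peaks that met and 727 of the 2822 alone. Within classes the ASH1L medians lay closer, at 62.75 and 65% at gene starts, 49.5 and 52.5% in gene bodies and 46.25 and 50% between genes. For the mark they were 59.25 and 55%, 50 and 43.5%, and 46.5 and 43%. GC content can affect how many fragments are recovered and read, and its part in the difference between the lists was not tested.

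**Figure D5:**
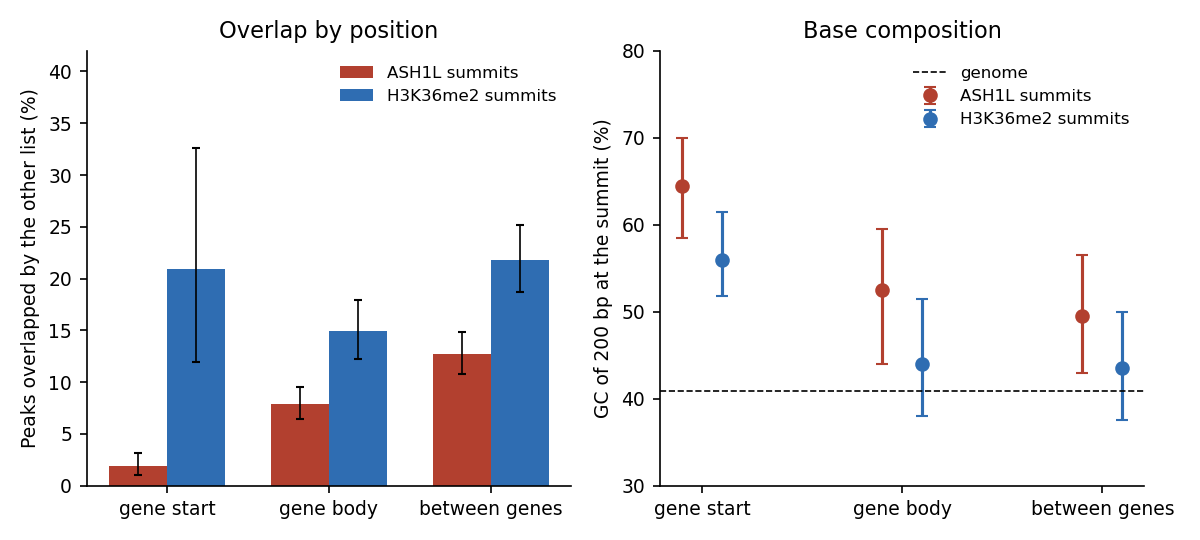
Left, percentage of ASH1L (red) and H3K36me2 (blue) peaks with DMSO that a peak of the other list overlapped, by position, with exact 95% intervals. Right, median GC content in percent of the 200 bp around the summit with quartiles as bars and the genome value as a dashed line. ASH1L overlap climbs from 1.89% at gene starts to 12.7% between genes while its GC falls from 64.5 to 49.5%. Regions in all 4 lists are included, which are 39 of the 140 overlapped ASH1L peaks between genes.

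Short sequence motifs, counted on both strands within 150 bp of each summit, set gene-start peaks apart from the rest. At ASH1L gene-start summits 60.1% of windows (56.4 to 63.6) held GGGCGG, the GC box, and 15.7% (13.1 to 18.5) held CCGGAAG, the core of ETS factor sites. Windows of the same size centred on all gene starts held them in 54.1 and 12.1%. In ASH1L windows of gene bodies and between genes, GGGCGG was in 17.7 and 12.6%, and CCGGAAG in 4.48 and 2.54%. These shares were lower than at gene starts, but above the 4.19 and 0.709% of consecutive windows over the whole genome. The 67 gene-start windows of the mark held the 2 motifs in 34.3 and 8.96%. When centred on the 895 starts that held ASH1L, the windows had GGGCGG in 67.5% (64.3 to 70.5) and CCGGAAG in 24.7% (21.9 to 27.7), so these starts were richer in both than gene starts at large. They held TATAAA, the TATA box, in 5.81% (4.37 to 7.55) against 9.26% of all starts. CCAAT was found in 35.8 and 33.7%, and CACGTG, the E-box, in 9.94 and 7.81%.

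Away from gene starts, both lists shared the AP-1 motif TGACTCA, the binding sequence of JUN and FOS dimers. It was in 10.3% of ASH1L windows in gene bodies (8.61 to 12.1) and 10.2% between genes, and in 10.6% (8.35 to 13.2) and 11.5% of mark windows. Consecutive windows of the same size over the whole genome held it in 4.60% and gene-start ASH1L windows in 2.43% (1.45 to 3.81). Where the lists met away from starts it was in 35 of 237 ASH1L windows (14.8%, 10.5 to 19.9), against 9.69% (8.46 to 11.0) of those alone, and the intervals overlap. Without the regions in all 4 lists it was in 33 of 191 (17.3%, 12.2 to 23.4), and that interval lay above the one for ASH1L peaks alone. For the mark the same shares were 32 of 191 (16.8%, 11.8 to 22.8) and 10.4% alone (8.65 to 12.4), and these intervals overlap. Overlap of intervals does not exclude a difference, and intervals of these differences were not computed. TGTGGT, the core of RUNX sites, was in 24.98 and 23.8% of ASH1L and 26.5 and 27.7% of mark windows in gene bodies and between genes, against 19.7% of the consecutive windows. TATAAA was rarer than in those windows (29.7%) in both lists, at 11.1 and 14.7% for ASH1L and 22.3 and 21.8% for the mark. These windows hold letters only, and whether a factor was bound there was not measured.

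Summit height varied little with position. The median ASH1L pileup was 17 fragments at gene starts, 16 in gene bodies and 16 between genes, with intervals of 16 to 17 in each. That of the mark was 17 (16 to 18), 18 (18 to 19) and 19 (19 to 20), highest between genes. Peaks that met the other list were higher, with a median of 21 against 16 for ASH1L and 22 against 18 for the mark. A higher peak is easier to call in both libraries, and how far this entered the overlap was not tested.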

How the data were processed

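The files analysed were peak lists of MV4;11 CUT&RUN libraries, 1 library per group, grouped by the labels. Per the study's methods, reads were mapped with Bowtie2 to hg19. Per the file headers, the authors called peaks for each library with MACS 2.1.0.20150731 from read pairs, keeping peaks under a q-value of 0.01 and 2 duplicates per position at most, without a control library or broad-region calling. The methods text names another MACS version with a p-value threshold, and its AS-99 dose is not quite that of the labels; headers and labels were followed. The methods describe replicate treatments and merging whereas the reporting form describes a single replicate, so a library may pool cultures. Only an H3K36me2 antibody is named there. The deposited pileup is a signal, the number of fragments at the summit, not scaled to depth. The deposited fold enrichment (a ratio to local background), −log10 p-value and −log10 q-value are the authors' own scores. Deposited positions and lengths are other columns, in bp.

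Summits on chromosomes 1 to 22 and X were annotated with the 20098 protein-coding genes of GENCODE release 44 mapped to GRCh37, the sequence of hg19, in Python 3.11.15 with numpy 2.4.6, pandas 2.3.3 and scipy 1.17.1. Gene bounds are those of the outermost transcripts. Shares have exact Clopper-Pearson intervals, their differences Newcombe intervals, medians order-statistic intervals and pileups Poisson intervals, all at 95%. A share of determined bases is the share of non-gap bases meeting the same definition, computed by counting bases. Fragments without molecular identifiers may not be independent, so intervals cover counting error only. The genes named were those at the 10 highest ASH1L gene-start summits, the 10 highest H3K36me2 gene body summits, the 10 genes with both, and 10 overlapping regions, of the highest smaller pileup (gene body summits and regions at least 1 Mb from a gap of 50 kb or more), plus members of the MLL1-fusion and H3K36 lists with a peak; chromosome 8 was kept out of the named items, and 1 of the genes is not reported here. FOXN3, MGLL, the family members named, the marker genes and the genes named as having no peak were chosen after their values were seen. The members and lists were chosen with earlier results of these data known. The share of repeat-masked bases was not computed because the reference marks none. Distance and overlap functions were tested on simulated data. Alternatives changed the score and fold thresholds, list length, gap-near peaks, gene starts, gene set, window, summit or midpoint, overlap rule, composition window and chromosome.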

Additional observations from a re-analysis of the deposited data

Results flagged for a closer look

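Peaks outside the chromosomes analysed were seen in both DMSO lists. The DMSO ASH1L list held 19 peaks and the DMSO H3K36me2 list 16 peaks on the mitochondrial genome and chromosome Y, in data that the comparisons leave out. There was no control library for them. They entered none of the comparisons, and what lies under them was not tested.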

How the results depend on the processing

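Over 13 results, 116 values under alternatives were computed, of which 85 fell within the 95% interval of the main estimate and 31 outside, and of the differences whose interval did not include 0, 0 changed direction. The alternatives without chromosome 19 or 8, and every value below on gene-start overlap, side of the start, composition, motif and zinc finger genes, were chosen after seeing the data. No paired analysis was possible because there was 1 library per group.

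With peaks of −log10 p of at least 10 (981 and 428 peaks), the position along the gene differed by 0.0632, mark summits with ASH1L within 1 kb came to 22.7%, the gene-start overlap difference to -10.2 points, the GC difference to 11 points and the zinc finger difference to 1.54 points. With a fold enrichment of at least 5 (1104 and 342 peaks), the gene-start share differed by 16.6 points, the median distance by 12.7 kb, the position by 0.0670, ASH1L summits with the mark within 1 kb came to 6.34%, the gene-start overlap difference to -6.14 points, GC to 7.75 points and zinc fingers to 1.47 points. With the ASH1L list trimmed to 1359 peaks, 14.3% of the mark and 14.3% of ASH1L summits had the other within 1 kb. The first fell since fewer ASH1L peaks remained, and for the second the cause was not tested. There the mark in genes with ASH1L at the start differed by -0.73 points (-1.84 to 1.28), opposite in sign to the reported 0.72, and both intervals include 0. The same difference was 1.71 points (0.92 to 2.76) over all annotated genes and 1.26 (0.10 to 2.86) without peaks near gaps, both clear of 0. The overlap difference was -13.3 points, the AP-1 motif difference outside minus at starts 9.56 points against 7.78, and the zinc finger difference 2.37.

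Counting the starts of all protein-coding transcripts gave 23.3 points for gene starts, 16.6 kb, -12.0 points for gene bodies and 57.4% downstream. All annotated genes gave 21.3 points and 6.49 kb, and a window of 500 bp gave 16.3 points. Keeping summits near starts gave -0.14 for the position, by construction. Reciprocal overlap of 50% gave 13.7% of mark and 6.05% of ASH1L peaks, and leaving out regions in all 4 lists gave 17.1 and 7.50%. The zinc finger difference of 5.00 points (2.76 to 7.83) became 1.91 (-0.39 to 5.45) without chromosome 19. Apart from those named, the cause was not tested.

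Limits are the single library per group, the low pileups, the narrow calling of a broad mark and peak calling without a control library. The gene-start excess of ASH1L ran from 16.3 to 23.3 points over the alternatives, whereas the median distance depended most on which genes were counted.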

Other observations

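Outside chromosome 8, several genes held repeated H3K36me2 summits with no ASH1L peak in the gene. MAPK6, an atypical MAP kinase gene, UNC79, a gene of the NALCN sodium leak channel, and ADGRL3, a latrophilin adhesion receptor gene, each had 3 mark summits and 0 ASH1L summits. RBPJ, the DNA-binding factor of Notch signalling, and MCF2L2, an exchange factor gene, had 2 mark and 3 ASH1L summits each. In all, 77 genes held at least 2 mark summits, 13 of them on chromosome 8. These genes were chosen after their values were seen.

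The mark was also counted in windows along the direction of transcription from each gene start. From 50 to 100 kb upstream of genes with ASH1L at the start, 5.25% had a mark summit (3.88 to 6.92), against 3.47% of other genes (3.22 to 3.74). From 50 to 100 kb downstream the shares were 4.80% (3.50 to 6.42) and 3.24% (2.998 to 3.505), with the lower bound of the first just below the upper bound of the second. From 10 to 50 kb upstream they were 2.68 and 2.79%. Gene density around these starts was not matched, and its part was not tested.

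The highest pileups of both lists were at intergenic peaks. They reached 3598 fragments for ASH1L and 2909 for the mark, whereas no ASH1L gene-start peak exceeded 40. Both maxima were at peaks that the other list overlapped, so they are among the coinciding regions counted above. Intergenic peaks that stood alone reached 149 fragments for ASH1L and 52 for the mark. In all, 396 of the ASH1L and 156 of the mark peaks lay within 1 Mb of an assembly gap, and pileup was not broken down by distance to a gap.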
